A study of Homo sapiens with 8 samples.

Results

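The mitotic G2/M genes described here are 41 named genes of the machinery that takes a cell from G2 phase through mitosis. They were chosen by name and not by a threshold on these data, but with earlier results of these data known. Counts of members are therefore descriptive and no test of the set was made. All 41 are rows of the deposited table of 26760 genes. Of these 41 genes, 40 had enough counts to be tested, among 12303 genes tested in all. TTK, a kinase of the spindle checkpoint, was not tested.

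Transcripts of these genes accumulate periodically, from late S phase to mitosis, and are scarce in resting cells and in G1 phase. A repressor complex named DREAM holds many of them down outside that window, and MYBL2 and FOXM1 drive them inside it, in large part through a promoter element called CHR (cell cycle genes homology region), often beside CCAAT boxes bound by NF-Y. In a bulk tumour culture their level is widely used as a measure of how many cells are dividing. DNp63 is the form of p63 that lacks the N-terminal activation domain and is a lineage factor of squamous epithelium.

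RNA was sequenced in 8 libraries of LK2, an established human line of lung squamous carcinoma, in 4 groups of 2. The GFP group carried pLEX_306-GFP (replicate 1) or pLEX_307-GFP (replicate 2), and the constitutive DNp63 group carried DNp63 in the vectors with the same numbers. The other two groups carried pLIX_403-DNp63, a vector that expresses DNp63 in response to doxycycline, and were kept for 6 days without the drug (uninduced) or with 2 µg per ml of it (induced). All groups shared the parent line and the culture medium. No group had the drug without DNp63, so effects of doxycycline and of DNp63 cannot be told apart in the induced cells. The labels do not say whether libraries of a group came from separate cultures, so p-values measure only the spread between these libraries. The comparisons ask how overexpression of DNp63 relates to gene expression in this line.

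Library totals ran from 2758158 to 10372248 counts. Levels are given in CPM, the count relative to the scaled size of the library. TP63, the gene of DNp63, stood at 0.739 and 1.91 CPM in the GFP group and at 1850.1 and 3816 CPM in the constitutive group. In the inducible line it rose from 12.7 and 14.8 CPM to 412 and 422 CPM with the drug, so its levels went with the labels. Of 12 squamous and basal markers 9 were tested, and KRT14, KRT15 and KRT17 had at most 7 counts in any library. Of 15 markers of fibroblasts, immune and endothelial cells, 7 to 12 were at 0 counts in each library, and their summed level was 10.3 to 33.9 CPM. Replicates of the constitutive system stood further apart than those of the inducible system. The spread between replicates, as a chi-square per degree of freedom over genes, was 18.0 for GFP and 25.6 for DNp63, against 3.91 uninduced and 5.38 induced, so no library was a copy of another within sampling noise.

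The mitotic genes were lowest as a set in the constitutive DNp63 library with pLEX_307. Their summed level was 2818 CPM in GFP replicate 1 and 5037 CPM in GFP replicate 2, against 2579 and 1454 CPM in the DNp63 libraries of the same numbers. Without the drug the inducible line had sums of 3729 and 3917 CPM, and with it 4571 and 4518 CPM. Both constitutive DNp63 libraries were thus below both GFP libraries, and both induced libraries above both uninduced ones. The gap between the GFP libraries was larger than the gap between the lower GFP library and the higher DNp63 library. In RNA of a whole culture, fewer cells in mitosis and less of these transcripts in each cell cannot be told apart.

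**Figure D1:**
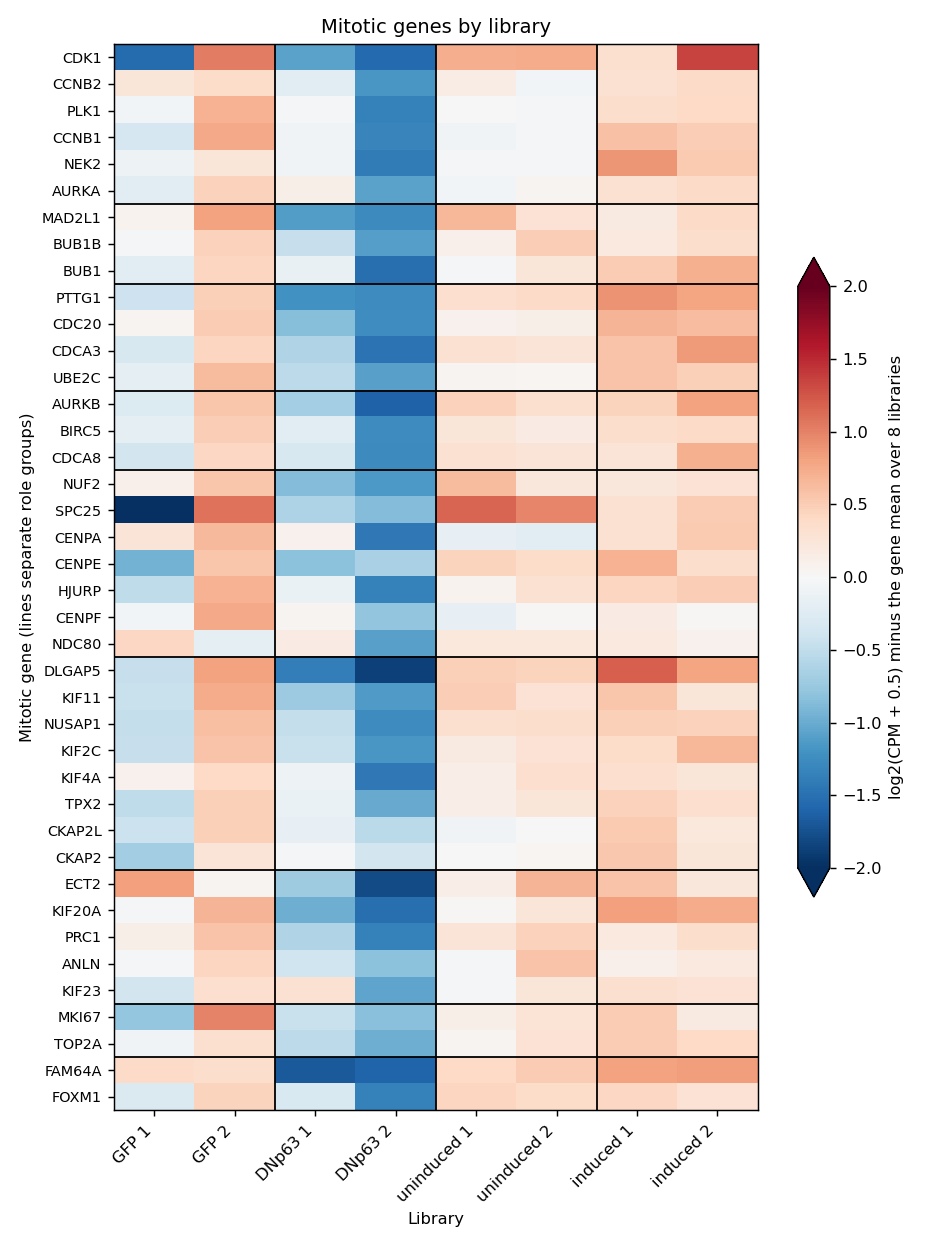
Level of each of the 40 tested mitotic genes (rows, grouped by role) in each of the 8 libraries (columns), as log2(CPM + 0.5) minus the mean of that gene over the 8 libraries; red is above the mean of the gene and blue below it. The column of constitutive DNp63 replicate 2 is blue throughout, GFP replicate 1 and DNp63 replicate 1 are mixed, and the 4 libraries of the inducible system are mostly pale to red.

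Under constitutive DNp63 the mitotic genes were lower than with GFP, and 12 of 40 fell by edgeR's quasi-likelihood test (adjusted p below 0.05, Benjamini-Hochberg over the 12303 tested genes). None rose. Over all tested genes 3.99% were called lower and 4.17% higher in this comparison. The 12 were FAM64A, CDC20, KIF20A, MAD2L1, PTTG1, PRC1, DLGAP5, TOP2A, UBE2C, AURKB, NUF2 and BUB1B. All 40 log2 fold changes were below 0, against 49.2% of all tested genes, except that CKAP2 came to 0.020 when libraries were scaled by their totals only. The count below 0 was 33 without GFP replicate 2 and 37 without DNp63 replicate 2. The median was -0.93, a 1.91-fold lower level, beside 0.01 over all tested genes. The groups did not overlap, with both DNp63 libraries lower, for 21 of the 40, against 22% of all tested genes. DESeq2 called 16 of the 40 lower, beside 5.05% of all genes.

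The size of that difference depended on which libraries were read. Between the pLEX_307 libraries all 40 genes were lower with DNp63, against 49.5% of all tested genes, and the median log2 CPM difference was -1.78, a 3.44-fold lower level. Between the pLEX_306 libraries the median was -0.11, with 22 genes below 0, against 49.3% of all tested genes, and 18 above it. The genes lower in the pLEX_306 pair were thus lower in both pairs. The pLEX_306 library with GFP was itself lower than the other GFP library in 37 of 40 genes (median log2 difference -0.74, against 50.2% of all tested genes below 0). The pLEX_306 library with DNp63 was higher than the other DNp63 library in 38 of 40 (median 0.77, against 49.5% of all tested genes above 0). TP63 was at 1850.1 CPM in the first of these DNp63 libraries and 3816 CPM in the second. CDKN1A, which encodes the CDK inhibitor p21, was at 1147 CPM in the pLEX_306 library with GFP and 569 CPM in the other GFP library, and at 635 and 711 CPM in the DNp63 libraries. The part of either gene in the mitotic values was not tested.

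By role, the pLEX_306 pair had its lowest medians in FAM64A with FOXM1 (-1.05), the central spindle and cytokinesis genes (-0.71), the partners of the anaphase-promoting complex (-0.58) and the spindle checkpoint (-0.42). The first of these covers only FAM64A, at -2.08, and FOXM1, which was level at -0.02. The pLEX_306 medians were near or above 0 for the passenger complex (-0.03), the spindle motors (0.01), the kinetochore genes (0.11), the entry kinases and cyclins (0.15) and MKI67 with TOP2A (-0.07). MKI67 alone was at 0.33 there and TOP2A at -0.46. In the pLEX_307 pair the same groups had medians of -1.89, -1.92, -1.74, -1.95, -1.76, -1.79, -1.75, -1.85 and -1.56. The group medians ran from -1.05 to 0.15 in the first pair and from -1.95 to -1.56 in the second, with 1 library on each side and no test. In the pLEX_306 pair FAM64A (-2.08), ECT2 (-1.56) and MAD2L1 (-1.21) had the lowest single values, and SPC25 (2.08), CKAP2 (0.69) and KIF23 (0.68) the highest, where SPC25 had 2 counts in the GFP library and ECT2 15 in the DNp63 library.

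The count of called genes moved with the library left out. Without GFP replicate 1 there were 19 genes called lower under constitutive DNp63, beside 4.65% of all genes tested in that fit, and without GFP replicate 2 there were 3, beside 1.88%. Leaving out DNp63 replicate 1 gave 28 calls, beside 4.06% of all genes, and leaving out DNp63 replicate 2 gave 6, beside 5.61%. Leaving out any 1 of the 4 inducible libraries, which share the estimate of the spread, left 7, beside 1.99% to 2.06% of all genes. With a term for the vector, which the replicate number marks in the constitutive groups, 17 were called. No share over all tested genes is given for that fit, so the 17 cannot be set against it. FAM64A, CDC20 and KIF20A were called in all 8 of these fits, and the fit of the 4 constitutive libraries alone called FAM64A only, beside 0.714% of all genes called lower.

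**Figure D2:**
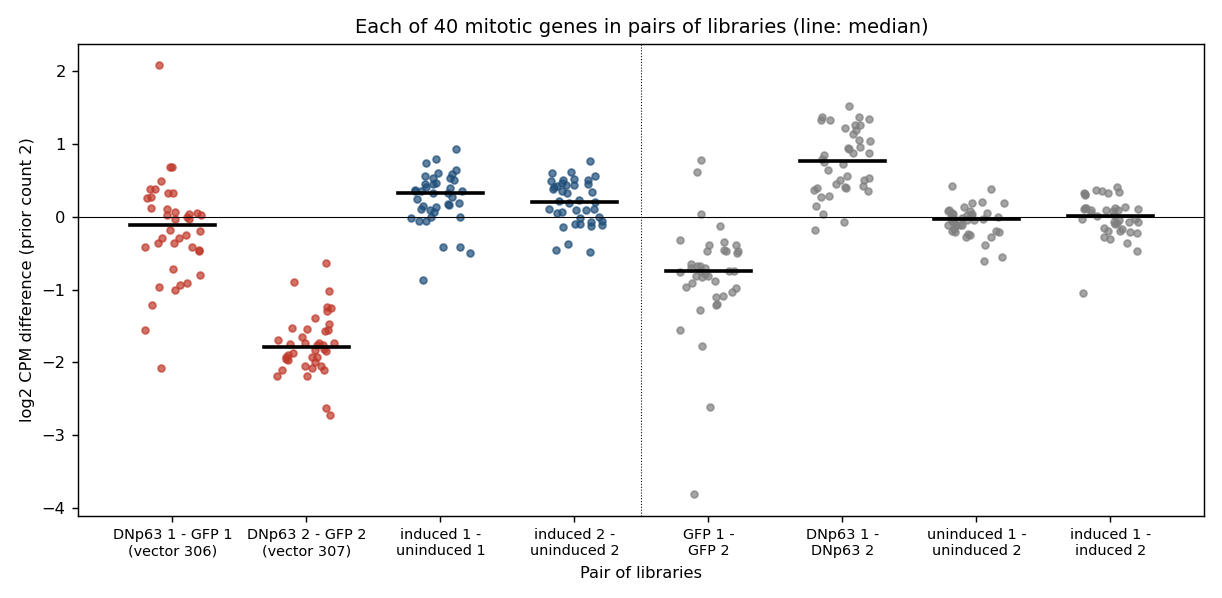
Difference in log2 CPM (vertical axis, prior count 2) for each of the 40 tested mitotic genes between 2 libraries; each dot is a gene and each line the median over genes. Left of the dotted line are DNp63 libraries against the control library of the same number, and right of it replicates of one group; the pLEX_307 pair has its median at -1.78 and the pLEX_306 pair at -0.11, while replicates of the inducible system have medians of -0.04 and 0.02.

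In the inducible system most mitotic genes stood slightly higher with DNp63, and none of the 40 was called in either direction by edgeR, where 0.0488% of all tested genes were called lower and 0.236% higher. DESeq2 called none either, beside 0.284% of all tested genes lower and 0.61% higher. At an unadjusted p below 0.05, CDC20 and KIF20A stood higher and no member lower, beside 3.47% of all tested genes higher and 2.57% lower. The median log2 fold change was 0.24, a 1.18-fold higher level, beside -0.00 over all tested genes. The value was above 0 for 31 of 40 genes, against 49.8% of all tested genes, and for 28 to 34 with 1 library left out. Both induced libraries were above both uninduced libraries for 23 genes, against 22.9% of all tested genes, and below both for 2, against 24%. A fit of these 4 libraries alone called 8 genes higher, namely BUB1, CCNB1, CDC20, KIF20A, NEK2, PLK1, PTTG1 and UBE2C, beside 3.63% of all tested genes. The median difference was 0.33 in the first pair of libraries and 0.21 in the second.

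The systems were compared by a test of the difference itself, the induced effect minus the constitutive one. It was above 0 for all 40 genes, against 49.1% of all tested genes, with a median of 1.21. The count above 0 was 36 without GFP replicate 2 and 38 without DNp63 replicate 2. The test was passed by 3 genes, namely FAM64A, CDC20 and KIF20A. Over all tested genes 0.293% were called higher and 0.252% lower in that comparison. DESeq2 called 7 of the 40, beside 1.2% of all tested genes. The 3 calls rest on the pooled spread. Over the 8 fits that left out 1 library the median difference ran from 0.78 to 1.64. FAM64A, CDC20 and KIF20A each lost the call in some of these fits. With a term for the vector 9 were called, with no share over all tested genes to set beside them. With pLEX_306 alone in the constitutive groups the median difference was 0.33, and with pLEX_307 alone it was 1.96. DNp63 levels differed between the systems too, at 412 and 422 CPM of TP63 in induced cells against 1850.1 and 3816 CPM in constitutive ones, and the part of that level in the difference was not tested.

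Averaged over both systems, FAM64A and MAD2L1 fell and no mitotic gene rose, beside 2.41% of all tested genes called lower and 3.26% called higher. The median was -0.36, and 38 of 40 values were below 0, or 36 when libraries were scaled by their totals only, against 50.8% of all tested genes. The count below 0 was 28 without GFP replicate 2 and 31 without DNp63 replicate 2. With pLEX_306 alone in the constitutive groups the median turned to 0.06, and with pLEX_307 alone it was -0.76. This average shares its libraries with both comparisons above. For FAM64A it combines opposite directions, -2.06 under constitutive and 0.37 under induced DNp63, and for MAD2L1 -1.76 and -0.21. Over the 8 fits that left out 1 library the averaged median ran from -0.63 to -0.12. FAM64A and MAD2L1 each lost the call in some of these fits. With a term for the vector 4 were called, again without a share over all tested genes. The control groups themselves, uninduced against GFP, differed by a median of 0.05, with no member called by edgeR or DESeq2 and none at an unadjusted p below 0.05. In that comparison edgeR called 0.00813% of all tested genes lower, which is 1 gene, and 0% higher. DESeq2 called 0.365% lower and 0.108% higher, and at an unadjusted p below 0.05 edgeR had 5.33% lower and 3.77% higher. Without GFP replicate 1 the control median was -0.29, and without GFP replicate 2 it was 0.37 with 1 member called higher.

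**Figure D3:**
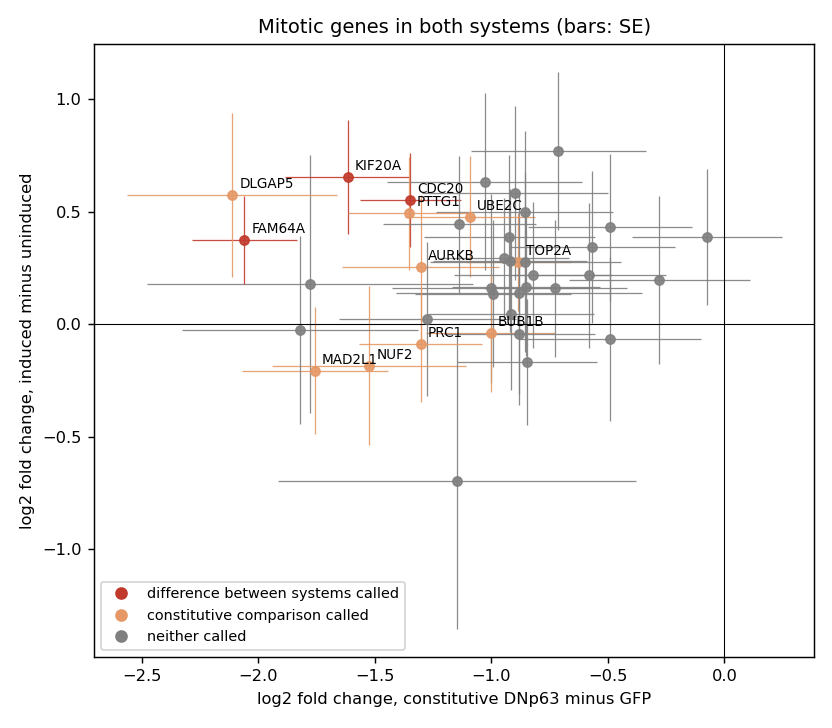
Each tested mitotic gene by its log2 fold change under constitutive DNp63 (horizontal axis) and under induced DNp63 (vertical axis), with standard errors from the edgeR fit as bars; colours mark genes called in the difference between systems, in the constitutive comparison, or in neither. All 40 points lie left of 0, where CKAP2 crosses to 0.020 if libraries are scaled by their totals only, and 31 lie above 0; FAM64A, CDC20 and KIF20A are the 3 called in the difference.

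Promoter sequences are shown for 6 members. CDC20, KIF20A, MAD2L1 and PRC1 were called under constitutive DNp63, CCNB1 was not, and KIF23 was among the members that differed least. The sequences are from RefSeq (GRCh38.p14) and run 5′ to 3′ on the strand of the gene, from 150 bases before the annotated start to 30 after it. Capitals mark a CHR element (TTTGAA or TTCGAA) or a CCAAT box, which reads CCAAT or, on the opposite strand, ATTGG.
CDC20: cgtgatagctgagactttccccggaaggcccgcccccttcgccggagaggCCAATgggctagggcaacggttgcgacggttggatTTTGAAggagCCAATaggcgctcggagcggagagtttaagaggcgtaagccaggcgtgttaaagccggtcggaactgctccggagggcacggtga
KIF20A: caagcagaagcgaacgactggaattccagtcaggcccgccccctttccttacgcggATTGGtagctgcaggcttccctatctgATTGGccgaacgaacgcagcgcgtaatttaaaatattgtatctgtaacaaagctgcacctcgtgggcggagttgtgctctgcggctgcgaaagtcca
MAD2L1: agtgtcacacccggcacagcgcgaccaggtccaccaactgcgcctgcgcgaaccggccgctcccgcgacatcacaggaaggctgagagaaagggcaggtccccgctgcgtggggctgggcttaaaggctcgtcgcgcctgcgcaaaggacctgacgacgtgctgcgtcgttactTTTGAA
PRC1: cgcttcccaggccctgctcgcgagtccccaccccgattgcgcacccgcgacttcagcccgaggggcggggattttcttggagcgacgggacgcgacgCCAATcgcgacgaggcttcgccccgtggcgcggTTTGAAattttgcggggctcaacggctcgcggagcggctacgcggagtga
CCNB1: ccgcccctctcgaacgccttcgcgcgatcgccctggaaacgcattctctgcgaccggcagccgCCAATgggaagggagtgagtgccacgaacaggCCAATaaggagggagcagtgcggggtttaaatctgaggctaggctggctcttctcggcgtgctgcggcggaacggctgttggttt
KIF23: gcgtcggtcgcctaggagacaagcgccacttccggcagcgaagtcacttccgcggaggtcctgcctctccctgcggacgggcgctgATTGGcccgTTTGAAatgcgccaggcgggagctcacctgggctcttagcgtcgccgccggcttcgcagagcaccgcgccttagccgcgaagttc

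The windows are chr1:43358831-43359010 (plus strand) for CDC20, chr5:138178962-138179141 (plus) for KIF20A and chr4:120066819-120066998 (minus) for MAD2L1. They are chr15:90994506-90994685 (minus) for PRC1, chr5:69167000-69167179 (plus) for CCNB1 and chr15:69414199-69414378 (plus) for KIF23. The CHR element began at -65 in CDC20, -55 in KIF23, -20 in PRC1 and 25 in MAD2L1, counted from the start site as 1. KIF20A and CCNB1 held no such letters, and each had a pair of CCAAT boxes. Of the 41 members 34 had a promoter entry, and AURKA, BIRC5, FOXM1, FAM64A, TPX2, UBE2C and TTK had none.

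In the window from 250 bases before the start to 50 after it, searched on both strands, a CHR element was found in 26 of the 34 members (76.5%), against 19.5% of 27305 genes with an entry. A CCAAT box was found in 27 (79.4%), against 39.7%, and both motifs in 22 (64.7%), against 9.02%. A half-site of the p53 family motif was found in CENPF, CDCA3 and CDCA8 (8.82%), against 8.06%. These matches are of letters and not of measured binding. Only TTTGAA and TTCGAA were searched as a CHR element, and other spellings were not. Under constitutive DNp63 the 26 genes with either spelling had a median log2 fold change of -0.997 and the 8 with neither -0.91. Under induced DNp63 these medians were 0.17 and 0.44.

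Members are described next by their role, each with its level in all libraries in the order of replicates 1 and 2. FAM64A, a nuclear protein of proliferating cells that binds the clathrin adaptor CALM, separated the constitutive groups most clearly. It was at 41.01 and 39.8 CPM with GFP and 9.43 and 9.89 CPM with DNp63. It was at 41.3 and 44.4 CPM uninduced and at 54.8 and 56.3 CPM induced. The constitutive groups were far apart with little spread inside either, and the 4 inducible libraries stood level with GFP or above it. The log2 fold change was -2.06 ± 0.22 (SE, n = 2 per group; edgeR adjusted p = 0.000427) under constitutive DNp63 and 0.37 ± 0.19 (adjusted p = 0.922) under induced DNp63. The difference between systems was 2.43 ± 0.30 (adjusted p = 0.00927), and 0.112 to 0.131 without 1 inducible library. The averaged value was -0.84 ± 0.15 (adjusted p = 0.00772), with an adjusted p of 0.0655 when uninduced replicate 2 was left out, and of 0.0675 and 0.0528 when induced replicate 1 or 2 was.

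FOXM1, the transcription factor that drives many genes of this set, did not pass the test in any comparison. Its level was 179.9 and 300.1 CPM with GFP and 177 and 85.3 CPM with DNp63, and 294, 283, 291 and 269 CPM in the uninduced and induced libraries. The first DNp63 library was level with the first GFP library, and the second was the lowest of the 8. The log2 fold change was -0.88 ± 0.32 (adjusted p = 0.130) under constitutive DNp63 and -0.04 ± 0.32 (adjusted p = 0.998) under induced DNp63.

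Of the kinases and cyclins of mitotic entry, 0 of 6 passed the test in any comparison by edgeR over all 8 libraries. CCNB1, NEK2 and PLK1 passed in the fit of the 4 inducible libraries alone, which called 3.63% of all tested genes higher. The median of the 6 was -0.91 under constitutive and 0.37 under induced DNp63. In the pLEX_306 pair 5 of these 6 were above 0, and in the pLEX_307 pair all 6 were below. CDK1, the catalytic kinase of mitotic entry, was at 2.96 and 19.9 CPM with GFP, 4.29 and 2.91 CPM with DNp63, 16.1 and 16.3 CPM uninduced, and 12.0 and 25.2 CPM induced. Its low value in GFP replicate 1 rested on 8 counts, its log2 fold change under constitutive DNp63 was -1.78 ± 0.70 (adjusted p = 0.155), and without GFP replicate 2 it was 0.24. CCNB1, the cyclin partner of that kinase, was at 72.0 and 155 CPM with GFP, 87.1 and 36.3 CPM with DNp63, 87.1 and 90.5 CPM uninduced, and 137 and 129 CPM induced. The constitutive groups overlapped for CCNB1 and the inducible groups did not, with log2 fold changes of -0.90 ± 0.40 (adjusted p = 0.208) and 0.58 ± 0.39 (adjusted p = 0.958, or 0.00122 in the fit of the inducible libraries alone).

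NEK2, a kinase that separates centrosomes, had the highest induced value of the set at 0.77 ± 0.35 (edgeR adjusted p = 0.825, or 0.00242 in the fit of the inducible libraries alone). It was at 28.4 and 28.4 CPM uninduced and 54.5 and 42.1 CPM induced, and at 27.3, 34.7, 28.0 and 10.9 CPM in the GFP and DNp63 libraries. The kinase PLK1 was at 189.5 and 318 CPM with GFP and 193 and 76.6 CPM with DNp63, so these groups overlapped, and it was at 197 and 191 CPM in the uninduced libraries and at no more than 257 CPM in the induced ones. Aurora A (AURKA), a kinase of spindle assembly, was at 38.1 and 61.2 CPM with GFP and 47.7 and 20.8 CPM with DNp63, with 1 library of each group inside the range of the other (-0.57 ± 0.35, adjusted p = 0.386). The second mitotic B cyclin, CCNB2, did separate the constitutive groups, at 82.8 and 90.2 CPM with GFP against 59.7 and 31.0 CPM with DNp63, and its value of -0.94 ± 0.28 did not pass (adjusted p = 0.0631).

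The spindle checkpoint delays anaphase until chromosomes are attached. MAD2L1, its soluble inhibitor of CDC20, fell under constitutive DNp63, with a log2 fold change of -1.76 ± 0.31 (adjusted p = 0.00728; 0.0587 without GFP replicate 2). It was at 22.9 and 38.5 CPM with GFP and 9.72 and 8.73 CPM with DNp63, and at 34.8, 26.6, 24.6 and 28.5 CPM in the uninduced and induced libraries. Both DNp63 libraries of the constitutive system were below all the others, while the inducible groups overlapped (log2 fold change -0.21 ± 0.28, adjusted p = 0.995). The averaged value was -0.98 ± 0.21 (adjusted p = 0.0219). Its adjusted p was 0.0764 in the fit lacking GFP replicate 2, 0.124 and 0.0594 in those lacking uninduced replicate 1 or 2, and 0.134 and 0.0820 in those lacking induced replicate 1 or 2.

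BUB1B, which encodes the checkpoint protein BUBR1, was at 53.9 and 76.4 CPM with GFP and 40.3 and 25.6 CPM with DNp63, and its fall of -1.003 ± 0.28 was close to the threshold (adjusted p = 0.0498). The call was lost without GFP replicate 2, DNp63 replicate 2 or any 1 inducible library, with adjusted p of up to 0.259. The kinase BUB1 was at 58.0 and 91.1 CPM with GFP, 60.6 and 23.3 CPM with DNp63, 66.0 and 79.8 CPM uninduced, and 96.0 and 110.4 CPM induced. Its constitutive groups overlapped and its inducible groups did not, and neither value passed (-0.86 ± 0.38 and 0.50 ± 0.36, adjusted p = 0.207 and 0.960). TTK had 2 and 3 counts with GFP, 0 and 1 with DNp63, 0 and 6 uninduced, and 0 and 3 induced. A count of 0 allows up to 3 counts, which is 0.857 CPM in DNp63 replicate 1, 0.604 CPM in uninduced replicate 1 and 0.371 CPM in induced replicate 1, for counting error only, so a difference in TTK was not detectable at this depth.

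The anaphase-promoting complex marks securin and cyclin B for destruction. Of its 4 partners and substrates listed, 3 fell under constitutive DNp63, beside 3.99% of all tested genes called lower. All 4 were lower with DNp63 in both constitutive pairs of libraries. CDC20, the activator of the complex in mitosis, was at 178 and 244 CPM with GFP and 94.6 and 72.0 CPM with DNp63. It was at 181 and 185 CPM uninduced and 273 and 263 CPM induced, so neither pair of groups overlapped and the direction was opposite. The log2 fold changes were -1.35 ± 0.22 (adjusted p = 0.00397) and 0.55 ± 0.21 (adjusted p = 0.619), and their difference was 1.90 ± 0.30 (adjusted p = 0.0301). Without GFP replicate 2 the adjusted p of that difference was 0.0531, and without 1 of the inducible libraries it was 0.176 to 0.242.

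PTTG1, the securin that holds separase in check, was at 79.1 and 147 CPM with GFP, 45.1 and 43.8 CPM with DNp63, 133 and 137 CPM uninduced, and 197 and 183 CPM induced. Its log2 fold change was -1.35 ± 0.26 under constitutive DNp63 (adjusted p = 0.0111; 0.0545 without GFP replicate 2) and 0.49 ± 0.25 under induced DNp63 (adjusted p = 0.919). PTTG1 has near-identical intronless copies in the genome, so its counts depend on how reads that match more than 1 copy were handled, which was not examined. UBE2C, the ubiquitin-conjugating enzyme of the complex, was at 74.6 and 131 CPM with GFP and 58.3 and 39.4 CPM with DNp63, with a log2 fold change of -1.09 ± 0.28 (adjusted p = 0.0393). That call was lost without GFP replicate 2, DNp63 replicate 2 or any 1 inducible library, with adjusted p of up to 0.244. CDCA3, a protein of mitotic entry that is itself degraded through the complex, had -1.14 ± 0.33 (adjusted p = 0.0602).

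The core subunits of the complex and the subunits of cohesin were compared as 22 other genes. Under constitutive DNp63, RAD21, the cohesin subunit that separase cuts, was the only one called, at -0.79 ± 0.19 (adjusted p = 0.0265). Over all tested genes 3.99% were called lower there. The median of the 22 was -0.15 under constitutive and -0.04 under induced DNp63, beside -0.93 and 0.24 for the mitotic set. That gap between the lists was not tested.

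**Figure D4:**
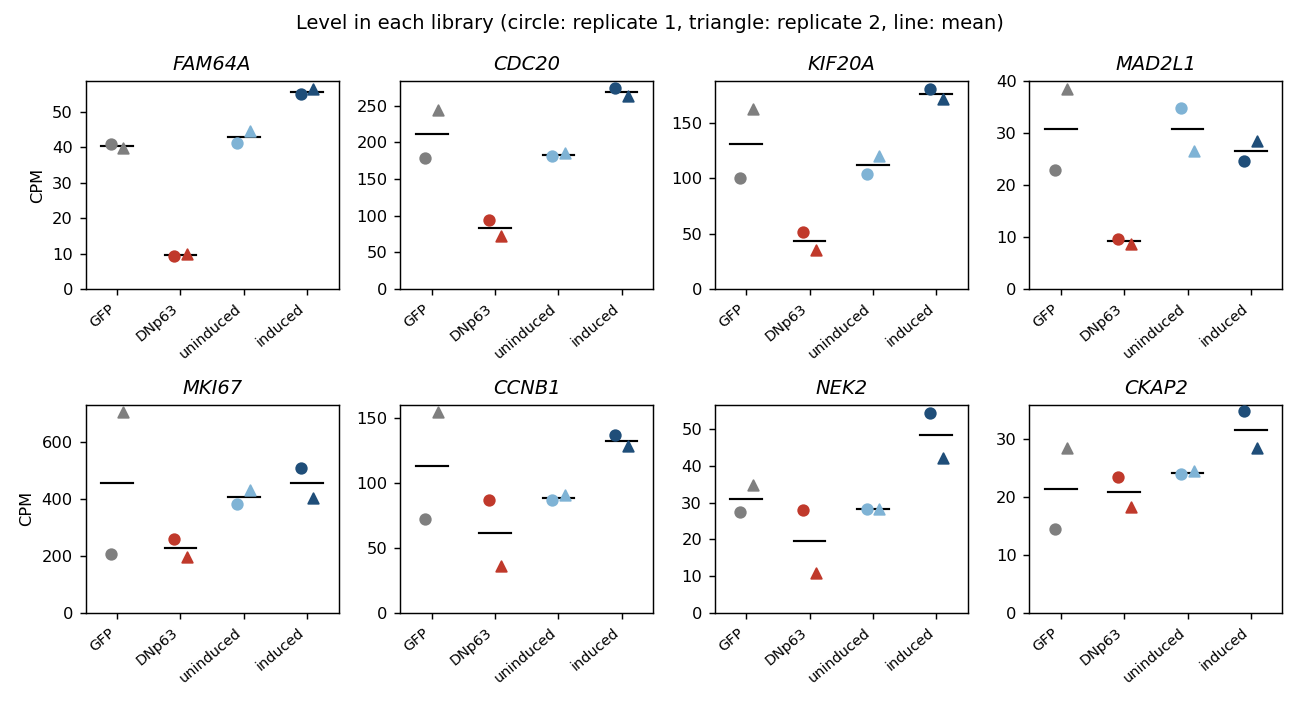
Level in CPM (vertical axes, linear and starting at 0) of 8 mitotic genes in each library, by group; circles are replicate 1, triangles replicate 2 and lines group means. FAM64A, CDC20, KIF20A and MAD2L1 have both constitutive DNp63 libraries below both GFP libraries, whereas for MKI67, CCNB1, NEK2 and CKAP2 these groups overlap.

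The chromosomal passenger complex corrects faulty attachments and then moves to the midzone. Its kinase AURKB was at 98.7 and 176 CPM with GFP, 74.0 and 38.4 CPM with DNp63, 164 and 148 CPM uninduced, and 163 and 209 CPM induced. AURKB fell by 1.30 on the log2 scale under constitutive DNp63 (SE 0.33, adjusted p = 0.0396), a call lost without GFP replicate 2, DNp63 replicate 2 or any 1 inducible library (adjusted p of up to 0.247). Survivin (BIRC5) and borealin (CDCA8), its other subunits here, had -0.85 ± 0.32 and -0.82 ± 0.34 (adjusted p = 0.132 and 0.175). In DNp63 replicate 1 both were near the lower GFP library, at 177 CPM against 182 and 290.3 CPM for BIRC5 and at 55.7 CPM against 53.6 and 92.8 CPM for CDCA8. In DNp63 replicate 2 they were at 85.7 and 28.5 CPM, below every other library.

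At the centromere and kinetochore, which join chromosomes to the spindle, 1 of 7 genes fell under constitutive DNp63. Over all tested genes 3.99% were called lower there. The median of the 7 was -0.88. NUF2, a subunit of the microtubule-binding NDC80 complex, was at 6.65 and 9.32 CPM with GFP and 3.14 and 2.52 CPM with DNp63, and at 9.86, 7.29, 7.29 and 7.67 CPM in the inducible libraries. Its log2 fold change was -1.52 ± 0.42 (adjusted p = 0.0481) on 11 to 75 counts per library. NUF2 kept that call in 1 of the 8 fits that left out a library, the one without GFP replicate 1, and its adjusted p otherwise reached up to 0.244.

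The other kinetochore genes did not pass the test. CENPF, an outer kinetochore protein, was at 165 and 291 CPM with GFP and 179 and 98.9 CPM with DNp63. The centromeric histone CENPA and its chaperone HJURP had -1.03 ± 0.42 and -0.85 ± 0.41 (adjusted p = 0.169 and 0.246). CENPA was at 21.1 and 27.7 CPM with GFP and 18.6 and 6.21 CPM with DNp63, which did not overlap, while HJURP was at 78.0 and 180.4 CPM with GFP and 102 and 43.3 CPM with DNp63, which did. NDC80 was at 26.2 and 16.9 CPM with GFP, 22 and 8.92 CPM with DNp63 and 20.7 to 22.7 CPM in the inducible libraries. SPC25, another subunit of that complex, rested on 2 counts in GFP replicate 1, and the motor CENPE on 7, which limits what can be read from them.

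Of 8 spindle motors and microtubule-associated proteins, DLGAP5, which bundles microtubules at kinetochores, had the lowest constitutive value of the whole set. It was at 8.50 and 21.2 CPM with GFP, 4.29 and 2.91 CPM with DNp63, 16.7 and 16.4 CPM uninduced, and 28.0 and 21.0 CPM induced. Its fall under constitutive DNp63 was -2.11 ± 0.45 (adjusted p = 0.0174), with adjusted p of 0.0608 without DNp63 replicate 2 and 0.164 without GFP replicate 2. The induced value was 0.57 ± 0.36 (adjusted p = 0.949), and the difference between systems, at 2.68 ± 0.58, did not pass (adjusted p = 0.0850).

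The other spindle genes did not pass in any comparison. KIF11, the motor that pushes spindle poles apart, was at 14.8 and 34.3 CPM with GFP and 12.0 and 8.92 CPM with DNp63 (-1.27 ± 0.38, adjusted p = 0.0662). NUSAP1, which bundles spindle microtubules, was at 140.4 and 298 CPM with GFP and 141 and 81.1 CPM with DNp63 (-0.99 ± 0.33, adjusted p = 0.0975). The kinesins KIF2C, which depolymerises microtubule ends, and KIF4A, which acts on chromosome arms and the midzone, had -0.92 ± 0.33 and -0.91 ± 0.36. KIF2C in DNp63 replicate 1 was level with the lower GFP library (71.4 against 70.2 CPM), and KIF4A was just below it (39.7 against 45.4 CPM). TPX2, an activator of Aurora A, was at 105 and 208 CPM with GFP and 137 and 74.7 CPM with DNp63 (-0.58 ± 0.33, adjusted p = 0.335), so its groups overlapped. All 8 spindle genes were above 0 under induced DNp63, with a median of 0.25 and none called. CKAP2, a microtubule-stabilising protein, stood nearest to 0 under constitutive DNp63, at -0.07 ± 0.32 (adjusted p = 0.923), and had the highest averaged value, 0.16 ± 0.22. It was at 14.4 and 28.4 CPM with GFP and 23.4 and 18.2 CPM with DNp63, so both DNp63 libraries fell between the GFP libraries.

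Among 5 genes of the central spindle and cytokinesis, KIF20A and PRC1 fell under constitutive DNp63, beside 3.99% of all tested genes called lower. KIF20A, the motor that carries cytokinesis factors to the midzone, was at 99.8 and 163 CPM with GFP, 51.1 and 35.3 CPM with DNp63, 104 and 119.6 CPM uninduced, and 180.3 and 171 CPM induced. Its log2 fold change was -1.61 ± 0.27 under constitutive DNp63 (adjusted p = 0.00489) and 0.65 ± 0.25 under induced DNp63 (adjusted p = 0.660). The difference between systems was 2.27 ± 0.37 (adjusted p = 0.0305), with adjusted p of 0.0611 without GFP replicate 2 and 0.174 to 0.246 without 1 inducible library.

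PRC1, which bundles antiparallel microtubules in the midzone, was at 168 and 231 CPM with GFP, 102 and 60.5 CPM with DNp63, 185 and 214 CPM uninduced, and 177 and 198 CPM induced. It fell by 1.30 on the log2 scale under constitutive DNp63 (SE 0.26, adjusted p = 0.0132; 0.0816 without GFP replicate 2), and the induced value was -0.09 ± 0.25 (adjusted p = 0.995). KIF23, the kinesin of the centralspindlin complex, was at 32.5 and 53.2 CPM with GFP and 52.3 and 19.98 CPM with DNp63, which overlapped (-0.28 ± 0.39, adjusted p = 0.740). ECT2 was at 13.3 and 7.62 CPM with GFP and 4.29 and 1.75 CPM with DNp63, and its value of -1.82 ± 0.51 did not pass (adjusted p = 0.0520) and rested on 9 counts in DNp63 replicate 2. Anillin (ANLN), a scaffold of the contractile ring, was at 24.0 and 33.2 CPM with GFP and 18.6 and 13.8 CPM with DNp63 (-0.85 ± 0.30, adjusted p = 0.117). The 5 genes had a median of -1.30 under constitutive and -0.03 under induced DNp63.

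MKI67, whose protein Ki-67 coats mitotic chromosomes and serves as a proliferation marker, differed widely between the GFP replicates. It was at 207 and 706 CPM with GFP, 259.7 and 198 CPM with DNp63, 384 and 431 CPM uninduced, and 507 and 403.1 CPM induced. Both DNp63 libraries of the constitutive system lay near the first GFP library, and the log2 fold change of -1.001 ± 0.43 did not pass (adjusted p = 0.188) and was 0.13 without GFP replicate 2. TOP2A, the topoisomerase that untangles sister chromosomes, was at 98.3 and 128 CPM with GFP, 71.4 and 52.0 CPM with DNp63, 107 and 126 CPM uninduced, and 146 and 135 CPM induced. Its fall of -0.88 ± 0.22 passed (adjusted p = 0.0377), and was lost without GFP replicate 2, DNp63 replicate 2 or any 1 inducible library, with adjusted p of up to 0.181.

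Other genes of the cell cycle were read beside the mitotic set, on lists chosen by name with earlier results of these data known. Of 55 further mitotic genes tested, 14 were called lower and none higher under constitutive DNp63 (median -1.07). Over all tested genes 3.99% were called lower and 4.17% higher there. None of the 55 was called under induced DNp63 (median 0.08), beside 0.0488% of all tested genes lower and 0.236% higher. Averaged over both systems, PKMYT1, ZWINT and CDCA5 fell, beside 2.41% of all tested genes called lower. PKMYT1, a kinase that holds CDK1 inactive, was at 35.8 and 42.8 CPM with GFP, 22.6 and 16.1 CPM with DNp63, 63.2 and 57.5 CPM uninduced, and 33.8 and 35.4 CPM induced. PKMYT1 was lower with DNp63 in both systems and in all 4 pairs of libraries, with an averaged log2 fold change of -0.92 ± 0.16 (adjusted p = 0.00883).

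Of 50 tested genes of G1/S and DNA replication, 21 fell in the averaged comparison and none rose, with a median of -0.64. Over all tested genes 2.41% were called lower and 3.26% higher in that comparison. The median was -0.62 under constitutive DNp63, with 7 called lower, beside 3.99% of all tested genes. Under induced DNp63 it was -0.67, with none called by edgeR, beside 0.0488% of all tested genes lower and 0.236% higher. At an unadjusted p below 0.05 by edgeR there were 32 of 50, beside 2.57% of all tested genes lower and 3.47% higher. The constitutive median was -0.15 in the pLEX_306 pair, with 19 genes above 0, against 50.7% of all tested genes. In the pLEX_307 pair it was -0.96, with 49 below 0, against 49.5% of all tested genes. In the induced pairs the medians were -0.74 and -0.68. E2F2, an activating E2F factor, was at 64.0 and 53.6 CPM uninduced and 20.5 and 17.5 CPM induced, and fell by 1.93 on the log2 scale in the average (SE 0.23, adjusted p = 0.000660). MCM10, a replication initiation factor, fell by 1.77 (SE 0.25, adjusted p = 0.00199). In the induced cells, then, 48 of 50 replication genes were below 0, against 50.1% of all tested genes. There 31 of 40 mitotic genes were above 0, against 49.8% of all tested genes, and the gap between these lists was not tested. The fitted difference of the uninduced group from the GFP group was above 0 for 47 of the 50 (median 0.69), against 48.7% of all tested genes. None of the 50 was called by edgeR in that comparison. At an unadjusted p below 0.05 by edgeR there were 29, beside 5.33% of all tested genes lower and 3.77% higher.

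**Figure D5:**
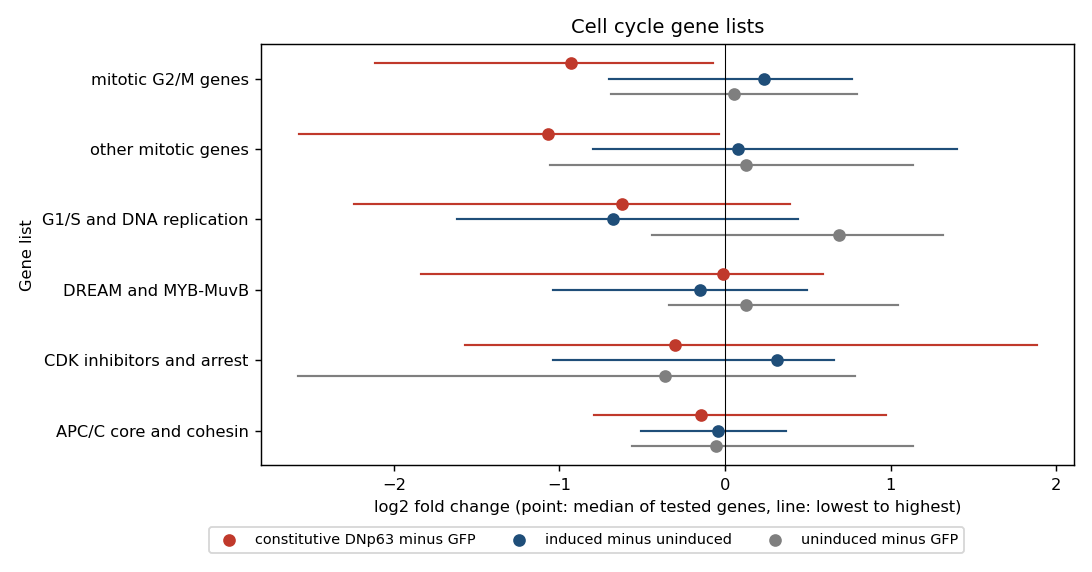
Median log2 fold change (points) and lowest to highest value (lines) of the tested genes of 6 cell cycle lists in 3 comparisons. The mitotic genes have medians of -0.93, 0.24 and 0.05, against -0.62, -0.67 and 0.69 for the G1/S and DNA replication genes.

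Of the regulators of the mitotic programme, MYBL2, the B-MYB subunit that activates CHR-bearing promoters, fell in the averaged comparison at -1.44 ± 0.23 (adjusted p = 0.00500). It was at 80.5 and 192 CPM with GFP, 36.3 and 40.3 CPM with DNp63, 245 and 218 CPM uninduced, and 103 and 123 CPM induced. MYBL2 was thus lower with DNp63 in both systems, and the constitutive value was -1.84 ± 0.34 (adjusted p = 0.00856) beside an induced value of -1.04 ± 0.32 (adjusted p = 0.394). None of the other 13 tested DREAM and MuvB regulators was called in the average. E2F1, the factor that opens S phase, was at 61.8 and 63.9 CPM uninduced and 30.3 and 33.2 CPM induced, and its averaged value was -0.91 ± 0.17 (adjusted p = 0.0104).

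Of 14 CDK inhibitors and arrest genes tested, SFN and CDKN2B rose in the average, beside 3.26% of all tested genes called higher. In the average 9 of the 14 were below 0 (median -0.13), against 50.8% of all tested genes. Under constitutive DNp63 the median was -0.30, and MDM2 and CCNG1, both targets of p53, fell (-1.18 ± 0.28 and -1.29 ± 0.34, adjusted p = 0.0287 and 0.0423) beside the rise of SFN and CDKN2B. Over all tested genes 3.99% were called lower and 4.17% higher there. SFN encodes 14-3-3 sigma, which keeps CDK1 with cyclin B out of the nucleus. It was at 48.4 and 48.9 CPM with GFP and 238 and 123 CPM with DNp63, and at 67.6 and 59.3 CPM uninduced and 87.9 and 95.8 CPM induced, with an averaged log2 fold change of 1.21 ± 0.20 (adjusted p = 0.00493). CDKN2B, which encodes p15, was at 18.5 and 18.0 CPM with GFP and 43.1 and 44.8 CPM with DNp63 (averaged 0.80 ± 0.19, adjusted p = 0.0368). CDKN1A did not pass in the average, at -0.19 ± 0.20 (adjusted p = 0.687). MDM2 was the single gene that edgeR called between the control groups, at 199 and 117 CPM with GFP against 27.0 and 25.9 CPM uninduced (-2.58 ± 0.30, adjusted p = 0.0418). The part of these genes in the mitotic values was not tested.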

How the data were processed

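The deposited table holds raw counts per gene for 8 libraries. Per the submitters' processing notes, the authors aligned reads with TopHat2 2.1 to hg19, counted with HTSeq and used SAMtools and DESeq2. The annotation and strand setting were not stated, being not given in the sources used here. Per the labels' protocols, libraries were directional, from poly-adenylated RNA, with 38 bp reads from both ends.

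Genes passing filterByExpr (minimum count 10) were scaled by TMM and fitted with edgeR 4.0.16 (R 4.3.3, legacy quasi-likelihood estimates), with 4 group means and 1 spread over 8 libraries. Tests were two-sided, adjusted by Benjamini-Hochberg over 12303 genes, called below 0.05. CPM use scaled sizes; paired log2 differences add a prior count of 2. In the constitutive groups the replicate number marks the vector, which was added as a term in an alternative; otherwise the labels give the number no meaning. Correlations of same-numbered deviations were 0.22 between GFP and DNp63 (0.33 over members) and -0.09 to -0.00 between the other groups (-0.28 to 0.27 over members). The main result has no block, and a block and a vector term were fitted as alternatives. The code was tested on simulated data. Alternatives were DESeq2 1.42.0, other scalings, no filter, other fits and left-out libraries.

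Members and lists were chosen with earlier results of these data known. Members may all be named; full statistics go to called members with the smallest p, the best of each role, preset genes and up to 4 genes per further list. The promoter search used RefSeq windows of GRCh38.p14, and no coordinates of hg19.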

Additional observations from a re-analysis of the deposited data

Results flagged for a closer look

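In 3 of 40 mitotic genes the log2 fold change with DNp63 differed between the inducible and the constitutive system. The test was of the difference itself (induced minus constitutive, edgeR quasi-likelihood, adjusted p below 0.05). Over all tested genes it called 0.293% higher and 0.252% lower. The 3 calls rest on the spread pooled over 8 libraries. Doxycycline and the level of TP63 also differed between the systems, and their part was not tested. The difference was 2.43 for FAM64A, 1.90 for CDC20 and 2.27 for KIF20A. Levels were lower with DNp63 in both constitutive pairs of libraries and higher in both induced pairs for all 3 genes.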

How the results depend on the processing

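Under constitutive DNp63 the 12 members called lower became 7 with library totals as the only scaling, 31 with no filter on low counts, 1 with only the groups compared in the fit, and 3 to 28 with 1 library left out. The 2 called lower in the average became 12 with no filter, 4 with a term for vector number and 0 to 11 with 1 library left out. The 3 called higher in the difference between systems became 23 with no filter, 7 with DESeq2, 9 with the vector term and 0 to 17 with 1 library left out. Under induced DNp63, 0 became 8 called higher with only those groups fitted, and for the control groups 0 became 0 to 1 with 1 library left out. The cause of these changes was not tested. Fits of fewer libraries have fewer degrees of freedom, and the fits of only the groups compared take the spread from those groups alone. The main fit shares 1 spread over groups whose replicates differed unequally. The chi-square per degree of freedom was 18.0 for GFP and 25.6 for DNp63, against 3.91 uninduced and 5.38 induced. The part of either in the counts was not tested. The vector term and the fits of 1 vector were chosen after seeing the data. Fits of only the groups compared called 0.714% of all tested genes lower (constitutive) and 3.63% higher (induced). DESeq2 called 1.2% higher in the difference. No share over all tested genes is given for library totals, no filter or the vector term, so those counts cannot be read as particular to the mitotic genes. With 1 library left out the median ran from -1.49 to -0.53 (constitutive), 0.19 to 0.29 (induced), 0.78 to 1.64 (difference), -0.63 to -0.12 (average) and -0.29 to 0.37 (controls). Without GFP replicate 2, 7 members were above 0 under constitutive DNp63, 12 in the average, and 4 were below 0 in the difference. With pLEX_306 alone the median of the average turned to 0.06. Among members with full statistics, the directions that reversed with 1 library left out were those of CDK1 (average -1.16 to 0.21, constitutive -2.50 to 0.24), MKI67 (-0.74 to 0.14, -1.63 to 0.13), CCNB1 (average -0.54 to 0.16) and CKAP2 (-0.036 to 0.45, -0.46 to 0.51), and with library totals CKAP2 (constitutive 0.020). With the replicate number as a block the calls numbered 2, 12 and 3, with medians of -0.35 (average), -0.96 (constitutive), 0.23 (induced) and 1.18 (difference) (the numbers mark the vector in the constitutive groups and are not known to pair the others). Depth limits TTK, CDK1, SPC25, CENPE and ECT2, which had under 10 counts in at least 1 library.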
